A study of Bombyx mori with 4 samples.

Results

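DNA transposons are mobile elements that move as DNA, and their RNA is described here as it was bound by BmVasa, the silkworm (Bombyx mori) homologue of the RNA helicase Vasa. The members are the sequences of a silkworm transposon library whose name carries the class DNA, and 122 of the 1716 library sequences did so, among 18596 sequences in the whole table. Their names carry 25 superfamily labels, which were merged into 16 groups by joining TcMar, hAT and Sola with their subgroups. The assay was FAST-iCLIP: RNA in contact with the protein is fixed to it by UV light, recovered with an antibody and sequenced. The cells were BmN4, a line from silkworm ovary. The Luc KD group received siRNA against luciferase as the control, and the Spn-E KD group received siRNA against Spindle-E (Spn-E), whose loss lowers Siwi loaded with piRNA. Each group had 2 replicates, which are merged in the deposited table, so each has 1 pooled value here and no difference below has a replicate check. Values of single replicates that accompany the publication were not used here.

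A complete DNA transposon encodes a transposase, which recognizes the inverted repeats at the ends of the element, cuts it out and inserts it elsewhere. Superfamilies such as TcMar, piggyBac, hAT, Harbinger and P differ in their transposase and in the target they insert into. Helitrons move by a rolling-circle mechanism, and miniature elements (MITEs) are short and encode no transposase of their own. In animal germ cells the piRNA pathway silences transposons: PIWI proteins guided by piRNAs cleave transposon transcripts, and in the silkworm this is done by Siwi and Ago3 in the nuage, where Vasa is found.

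The pooled libraries held 1012269 genome-mapped reads with Luc KD and 1059323 with Spn-E KD, of which 384001 and 403022 were sense reads on the gene library. Gene models carry identifiers without symbols in the table, so the knockdown of Spn-E and the identity of the cells were not checked here. Values are given as reads, as RPM (reads per 1000000 genome-mapped reads) or, between sequences of different length, as RPKM (RPM per kb). A single read was worth 0.988 RPM (Luc KD) or 0.944 RPM (Spn-E KD). RNA abundance is not among the values analysed here, so more BmVasa on each transcript and more transcripts cannot be told apart. Folds are Spn-E KD over Luc KD ratios of RPM with 95% Clopper-Pearson intervals, which cover counting error only. Other scalings set the point of no change at a log2 ratio of −0.17 (gene-library reads without BmTE_RM5-571), −0.24 (TMM) or −0.30 (median of protein-coding sequences), so every log2 ratio between −0.17 and 0 below turns positive under all 3 and those down to −0.30 under some. BmTE_RM5-571 is a sequence of the transposon library outside the class DNA.

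The first comparison asked how much BmVasa-bound RNA came from DNA transposons with and without Spn-E. DNA transposons received 8562 reads with Luc KD and 12103 with Spn-E KD, which was 1.35-fold higher RPM in the Spn-E KD library (1.31 to 1.39). As a share of gene-library reads the difference was 0.773 percentage points (95% Newcombe interval 0.703 to 0.844). Without BmpiggyBac-MER85, the member with the most reads, the ratio was 1.27-fold (1.24 to 1.31) and the difference in share was 0.511 points.

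DNA transposons differed from the other large classes in this ratio. LTR retrotransposons, which move through an RNA copy and carry long terminal repeats, went from 23479 to 23845 reads (0.970-fold, 0.953 to 0.988). LINEs, retrotransposons without such repeats, went from 7223 to 7917 reads (1.05-fold, 1.01 to 1.08). The ratio of DNA transposons was 1.39 times that of LTR elements (95% log interval 1.35 to 1.44) and 1.29 times that of LINEs (1.24 to 1.35), values that no scaling of the libraries changes. Without BmpiggyBac-MER85 they were 1.31 and 1.22 times. These intervals compare pooled libraries and not the conditions.

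Bound per unit of length, DNA transposons were near LTR elements in Luc KD and above them in Spn-E KD. Summed over members, the level was 47.5 RPKM with Luc KD and 64.2 RPKM with Spn-E KD for DNA transposons, 46.5 and 45.1 RPKM for LTR elements, 15.5 and 16.2 RPKM for LINEs, and 7.77 and 6.45 RPKM for the 14300 protein-coding sequences. The typical member did not follow the sum: the median over all 122 members was 21.8 RPKM with Luc KD and 20.3 RPKM with Spn-E KD. The sum was carried by few members. The 10 with the highest mean RPM made up 13.0% of the summed length and took 50.8% of the reads of the class with Luc KD and 55.6% with Spn-E KD.

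Reads were found in both libraries for 112 members. No reads were found in Luc KD for 7 members and in Spn-E KD for 7, of which 4 had none at all. Counting error lets 0 stand for up to 3 reads, or 2.96 RPM with Luc KD and 2.83 RPM with Spn-E KD. The median member had 25 reads with Luc KD and 24 with Spn-E KD, so single members were measured thinly outside the most abundant ones.

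**Figure D1:**
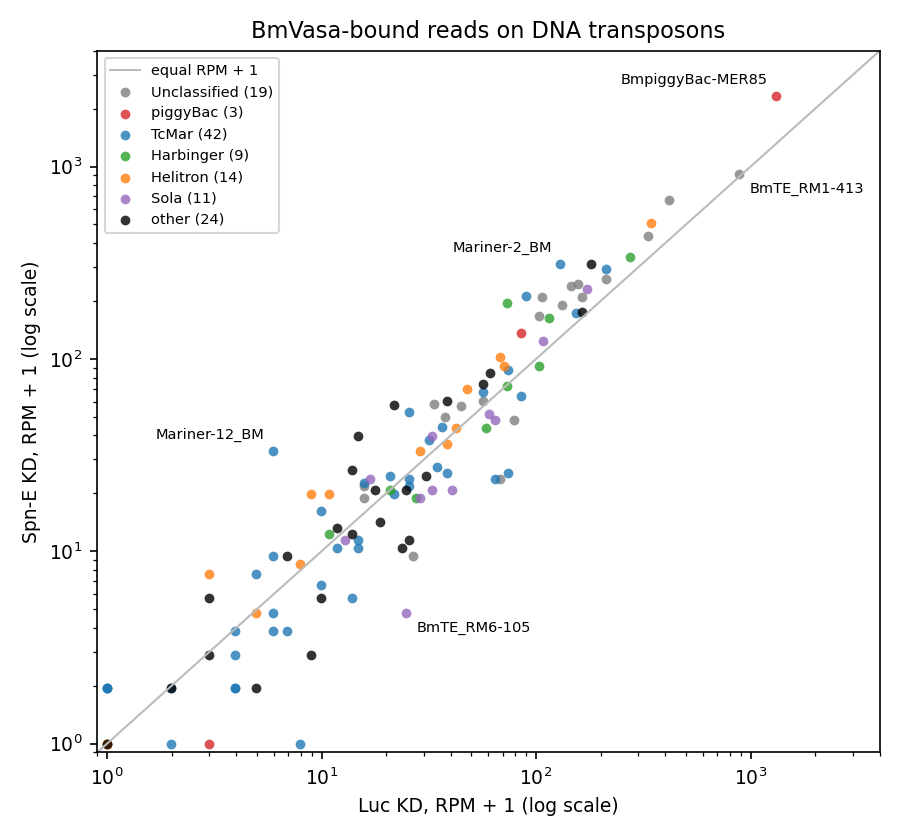
RPM + 1 of each of the 122 DNA transposons in the pooled Luc KD (x axis) and Spn-E KD (y axis) libraries, both on log scales, with 1 point per member coloured by group and a line of equal values. BmpiggyBac-MER85 stands highest at 1317 and 2320 RPM, and 32 of the 38 members with a mean of at least 50 RPM lie at a positive log2 fold change.

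By superfamily, piggyBac elements took many reads for their length and rose in sum. Their summed ratio was 1.75-fold (1.64 to 1.87), near those of the P group (1.74-fold) and the hAT group (1.75-fold). The 3 piggyBac sequences made up 4.34% of the summed length of DNA transposons and took 16.6% of their reads with Luc KD and 21.5% with Spn-E KD. Nearly all of these fell on BmpiggyBac-MER85, a sequence of 3504 nt. It had 1333 reads with Luc KD and 2458 with Spn-E KD, or 376 and 662 RPKM, the highest level per length among the members. The ratio was 1.76-fold (1.65 to 1.88), with adjusted p = 9.41e-62 in the exact binomial test (Benjamini-Hochberg adjusted over all 4727 sequences averaging 10 RPM or more). The second piggyBac sequence, BmTE_RM6-4218 (3127 nt), had 85 and 143 reads, a ratio of 1.61-fold (1.22 to 2.13, adjusted p = 0.00751, exact binomial test). The third, BmTE_RM6-5342, had 2 reads with Luc KD and 0 with Spn-E KD.

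The P superfamily, known from the P element of Drosophila, was represented by a single sequence, Kasu_polyA_type, of only 684 nt. It had 181 reads with Luc KD and 330 with Spn-E KD, or 261 and 455 RPKM, the second highest level per length in both libraries. The ratio was 1.74-fold (1.45 to 2.10, adjusted p = 4.80e-08, exact binomial test), close to that of BmpiggyBac-MER85.

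TcMar was the largest group, with 42 sequences from 66 to 3947 nt. Tc1 and mariner elements insert at TA dinucleotides and are among the most widespread DNA transposons of animals. The group held 29.7% of the summed length but only 15.6% of the reads with Luc KD and 14.5% with Spn-E KD, and 24 of its members reached a mean of 10 RPM. Summed reads went from 1332 to 1758, or 1.26-fold (1.17 to 1.36).

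The subgroup labels of TcMar went different ways. The 21 sequences labelled TcMar alone went from 1125 to 1622 reads, a log2 ratio of 0.46 (0.35 to 0.57). The 13 labelled TcMar-Mariner had 93 and 78 reads (log2 ratio −0.32, −0.77 to 0.13) and the 5 labelled TcMar-Tc1, led by BmTc1 at 11 and 10 reads, had 36 and 24 (−0.65, −1.46 to 0.13), both within counting error of no difference. The 3 labelled TcMar-m44 had 78 and 34 reads (−1.26, −1.89 to −0.67), which rested on BmTE_RM6-4471 with 74 and 26.

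Several numbered mariner elements rose within TcMar. Mariner-2_BM (1278 nt) had 130 reads with Luc KD and 327 with Spn-E KD, a 2.40-fold difference (1.96 to 2.97, adjusted p = 7.74e-17, exact binomial test). Mariner-12_BM (1651 nt) had 5 and 34 reads, the largest ratio among the called members at 6.50-fold, with a wide interval from 2.53 to 21.3 (adjusted p = 7.77e-05, exact binomial test). Mariner-7_BM had 25 and 55 reads (2.10-fold, 1.29 to 3.52). Not all numbered mariner elements were called. Of the 11 sequences named Mariner and a number, 10 were tested, 3 were called higher and 0 lower. Of all tested DNA transposons 23.3% were called higher and 5.56% lower, and of all tested sequences 3.74% and 8.23%. So few sequences do not set the numbered mariner elements apart from the class. Mariner-3_BM had 85 and 67 reads and Mariner-5_BM 34 and 28, neither past the threshold, and Mariner-11_BM, the most abundant TcMar-Mariner sequence, had 25 and 22.

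The most abundant TcMar sequence was BmTE_RM1-364 (1229 nt), with 214 and 308 reads (1.38-fold, 1.15 to 1.65, adjusted p = 0.00498, exact binomial test). BmTE_RM6-710 rose from 90 to 224 reads (2.38-fold, 1.85 to 3.07). In the opposite direction, BmTE_RM6-5534, at 3947 nt the longest TcMar sequence, fell from 64 to 24 reads (0.358-fold, 0.214 to 0.581, adjusted p = 0.000204, exact binomial test), and BmTE_RM6-4471 went to 0.336-fold (0.206 to 0.531). Of the 24 tested members of the TcMar group, 5 were called higher and 2 lower, where 3.74% and 8.23% of all tested sequences were.

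**Figure D2:**
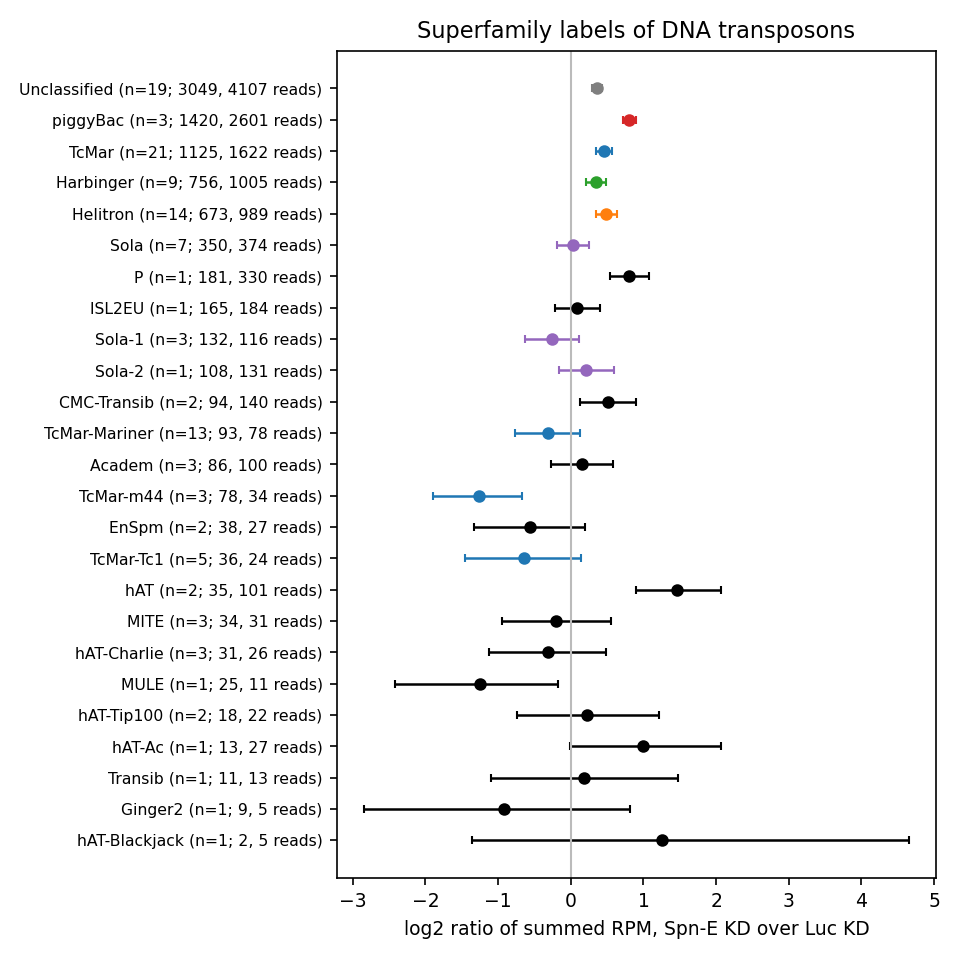
Log2 ratio of summed RPM, Spn-E KD over Luc KD (x axis), for each of the 25 superfamily labels of DNA transposons (y axis, with the number of sequences and the summed reads in Luc KD and Spn-E KD), ordered by reads in Luc KD. Bars are 95% Clopper-Pearson intervals of counting error, which lie above 0 for 8 labels, below 0 for 2 and across 0 for 15.

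Harbinger and Helitron elements both rose in sum, with most reads on a few long sequences. Harbinger elements, which carry a transposase gene and a second gene for a DNA-binding protein, had 756 reads with Luc KD and 1005 with Spn-E KD over 9 sequences (1.27-fold, 1.15 to 1.40). The most abundant, BmTE_RM6-5804 (2629 nt), had 277 and 358 reads and did not pass the threshold (1.24-fold, 1.05 to 1.45, adjusted p = 0.0642, exact binomial test). BmTE_RM6-5103 (3209 nt) rose from 73 to 207 reads, or 2.71-fold (2.07 to 3.59, adjusted p = 5.40e-13, exact binomial test), and BmTE_RM6-5261 from 115 to 171. None of the remaining 6 was called, among them Harbinger-N1_BM with 27 and 19 reads, so the median log2 fold change of the 9 was 0.0046.

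Helitrons had 673 and 989 reads over 14 sequences (1.40-fold, 1.27 to 1.55). Helitron-1_BM, at 5072 nt the second longest member, took 348 of these with Luc KD and 538 with Spn-E KD (1.48-fold, 1.29 to 1.70, adjusted p = 3.89e-07, exact binomial test). It was the only Helitron called, where 3.74% of all tested sequences were called higher and 8.23% lower. Of 9 tested Helitrons, 8 had a positive log2 fold change, with BmTE_RM1-125 at 68 and 107 reads and BmTE_RM1-166 at 47 and 73. The short elements named Helitron-N1 had few reads, with 38 and 37 for Helitron-N1_BM (432 nt), 4 and 4 for Helitron-N1B_BM and 7 and 8 for Helitron-N1C_BM.

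Sola elements showed no difference in sum beyond counting error. The 11 sequences labelled Sola, Sola-1 or Sola-2 held 15.0% of the summed length and had 590 reads with Luc KD and 621 with Spn-E KD, a ratio of 1.01-fold (0.897 to 1.13). BmTE_RM6-5862 (2678 nt) rose from 174 to 245 reads (1.35-fold, 1.10 to 1.64, adjusted p = 0.0278, exact binomial test), and without it the sum went from 416 to 376, a log2 ratio of −0.21 (−0.42 to −0.0067), which turns positive under TMM and under centring on protein-coding sequences. BmTE_RM6-105 (2098 nt) fell from 24 to 4 reads (0.159-fold, 0.0402 to 0.464, adjusted p = 0.00146, exact binomial test). The most abundant sequences of the subgroups, Sola1-2_BM with 60 and 54 reads and Sola2-1_BM with 108 and 131, were not called.

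The hAT group, named after the hobo, Ac and Tam3 elements, had a low level per length, 8.78 and 15.3 RPKM over its summed length, but rose in sum, from 99 to 181 reads over 9 sequences (1.75-fold, 1.36 to 2.26). The pair labelled hAT alone had 35 and 101 of these reads. Bmhopper (1992 nt) rose from 14 to 41 reads (2.80-fold, 1.49 to 5.56, adjusted p = 0.0083, exact binomial test) and BmTE_RM6-475 from 21 to 60 (2.73-fold, 1.64 to 4.73, adjusted p = 0.000633, exact binomial test). BmTE_RM6-2058, the hAT-Ac sequence, had 13 and 27 reads, BmTE_RM6-4324, the most abundant hAT-Tip100 sequence, 17 and 21, and BmTE_RM5-1106, the most abundant hAT-Charlie sequence, 18 and 14. None of these 3 passed the threshold, and BmTE_RM6-3962, labelled hAT-Blackjack, was at 2 and 5 reads.

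The smaller superfamilies gave few reads and held at most 2 tested members each. Of these, 0 were called, where 3.74% of all tested sequences were called higher and 8.23% lower, so the absence of calls is not informative. ISL2EU-1_BM (2695 nt) had 165 and 184 reads, a ratio of 1.07-fold (0.859 to 1.32). Academ-1_BM, the longest member at 5870 nt, had 61 and 88 reads and only 10.3 and 14.2 RPKM. CMC-Transib had 94 and 140 reads over 2 sequences (1.42-fold, 1.09 to 1.87), led by BmTE_RM1-559 with 56 and 77. The others were lower still: BmTE_RM5-339 (EnSpm) had 30 and 25 reads, BmTE_RM6-1846 (MULE) 25 and 11, MITE-Hoshidandy (MITE) 24 and 21, BmTE_RM1-590 (Transib) 11 and 13, and BmTE_RM6-1464 (Ginger2) 9 and 5.

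The 19 DNA transposons with no assigned superfamily took the most reads of any group. They made up 16.5% of the summed length and took 35.6% of the reads with Luc KD and 33.9% with Spn-E KD, so that their level over the summed length was 102.5 and 132.0 RPKM, below that of piggyBac at 181.7 and 318.0 RPKM. All 19 reached a mean of 10 RPM. Their sum went from 3049 to 4107 reads (1.29-fold, 1.23 to 1.35), and 16 of 19 had a positive log2 fold change. BmTE_RM1-413 (3542 nt), the second most abundant DNA transposon, had 895 and 967 reads, which did not separate the libraries (1.03-fold, 0.942 to 1.13, adjusted p = 0.771, exact binomial test), although it was called higher under each of the 3 other scalings. Without it the group rose more, by a log2 ratio of 0.48 (0.40 to 0.56) against 0.36.

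Of the 19 unclassified sequences, 7 were called higher and 2 lower (3.74% and 8.23% among all tested sequences). BmTE_RM1-614 (2381 nt) had 422 and 713 reads (1.61-fold, 1.43 to 1.83, adjusted p = 2.17e-13, exact binomial test), and BmTE_RM1-432 (1742 nt) 334 and 462 (1.32-fold, 1.15 to 1.53). Chochin (2218 nt) rose from 107 to 221 reads, or 1.97-fold (1.56 to 2.51, adjusted p = 1.48e-07, exact binomial test). BmTE_RM1-178 had 214 and 274 reads and was not called (adjusted p = 0.148, exact binomial test). BmTE_RM6-2104 and BmTE_RM6-829 went the other way, from 68 to 24 and from 26 to 9 reads (0.337-fold, 0.202 to 0.544, and 0.331-fold, 0.136 to 0.728).

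The groups were then compared with each other. Among the 8 groups with at least 100 reads in both libraries, 28 pairs were compared by the ratio of their ratios, with intervals widened for the number of pairs (Bonferroni), and 13 intervals excluded equality. The hAT group, at 99 reads with Luc KD, was not among the 8. piggyBac differed from 6 of the 7 other groups: the log2 ratio of TcMar minus that of piggyBac was −0.47 (widened interval −0.69 to −0.25) and that of Sola minus piggyBac −0.80 (upper bound −0.50). BmpiggyBac-MER85 held 93.9% of piggyBac reads with Luc KD and 94.5% with Spn-E KD, so these pairs rest largely on 1 sequence. P minus piggyBac was −0.01 (−0.45 to 0.44), an interval wide enough to hide a difference in either direction. Sola was also lower than Helitron, P, TcMar and the unclassified sequences. Harbinger, TcMar and the unclassified sequences lay within 0.03 of each other, with intervals that all held 0 and reached no further than 0.28 in either direction. These intervals hold counting error alone.

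Over single members, 90 of the 122 reached a mean of 10 RPM and were tested, and 21 were called higher and 5 lower in Spn-E KD. That is 23.3% and 5.56% of the tested members, against 3.74% called higher and 8.23% called lower among all 4727 tested sequences. Of tested LTR elements 18.3% were called higher and 16.5% lower, and of tested LINEs 12.2% in each direction. The share called higher among DNA transposons was thus nearer to these classes than to all tested sequences. A change of at least 2-fold on the log2(RPM + 1) scale was seen upward in 8 members (8.89%, against 3.13% of all tested sequences) and downward in 7 (7.78%, against 9.54%). The median log2 fold change on this scale was 0.25 for the 90 members, against −0.24 for all tested sequences. It lay 0.55 above the median of protein-coding sequences, where LTR elements lay 0.39 and LINEs 0.34 above it. These shares depend on scaling: after centring on protein-coding sequences 32 members were called higher and 4 lower, beside 6.66% and 2.94% of all tested sequences.

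**Figure D3:**
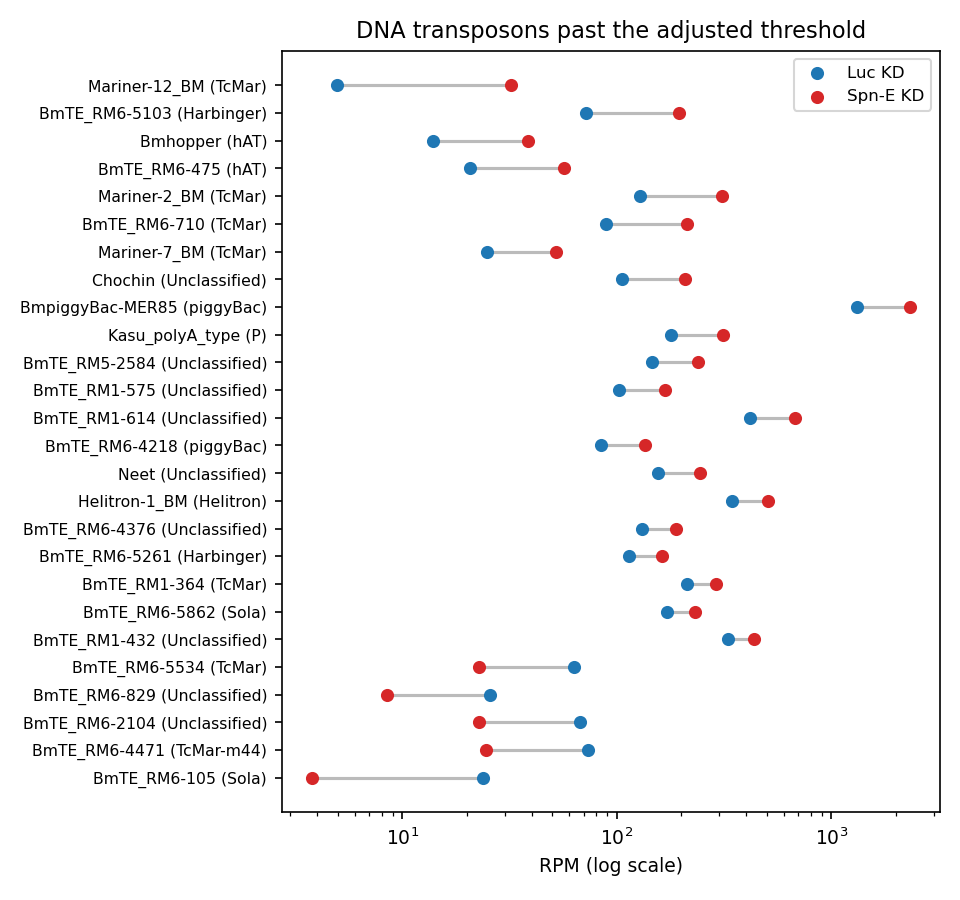
RPM in the pooled Luc KD (blue) and Spn-E KD (red) libraries (x axis, log scale) for the 26 DNA transposons past the adjusted threshold of the exact binomial test (y axis, with superfamily label), ordered by log2 fold change. The 21 higher in Spn-E KD reach from Mariner-12_BM to BmTE_RM1-432, and the 5 lower in Spn-E KD were at most at 73.1 RPM in Luc KD.

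The called members spread over superfamilies in both directions. Of the 21 called higher, 7 were unclassified, 5 TcMar, 2 each piggyBac, Harbinger and hAT, and 1 each Helitron, Sola and P. Those called higher and not yet given were all moderate in size: Neet (4046 nt, unclassified) went from 157 to 259 reads, BmTE_RM5-2584 from 147 to 254, BmTE_RM6-4376 from 133 to 200 and BmTE_RM1-575 from 103 to 177. Of the 5 called lower, 2 were unclassified, 2 TcMar and 1 Sola. The call itself rests on counting error. Once a biological coefficient of variation of 0.2 was assumed, edgeR's exact test called 0 members (0% higher and 0.169% lower among all tested sequences). In that test 13 members of either direction had an unadjusted p under 0.05. The share of all tested sequences under this limit was not computed, so this count cannot be judged.

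Members were split by abundance. Of 38 members with a mean of at least 50 RPM, 32 had a positive log2 fold change, with a median of 0.41. Of these 38 members, 17 (44.7%) were called higher and 0 lower. In this band 14.5% of all tested sequences were called higher and 23.2% lower. The shares were 31.7% and 23.3% among LTR elements and 36% and 32% among LINEs. Of 52 members with a mean of 10 to 50 RPM, 26 had a positive log2 fold change, with a median of −0.048, and 4 were called higher and 5 lower (1.35% and 4.89% among all tested sequences of this band). Of the 8 members at least 2-fold higher, 5 lay in the lower band, Mariner-12_BM among them, and 3 in the upper. Summed reads of the lower band were 1371 with Luc KD and 1397 with Spn-E KD, 0.974-fold in RPM (0.903 to 1.05). Among all tested sequences the medians of the same bands were −0.18 at 50 RPM or more and −0.25 below, and among LTR elements 0.14 and −0.014. Deeper members pass the test more readily, so the calls of the bands cannot be set against each other, and the bands were drawn on the mean of the same libraries.

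**Figure D4:**
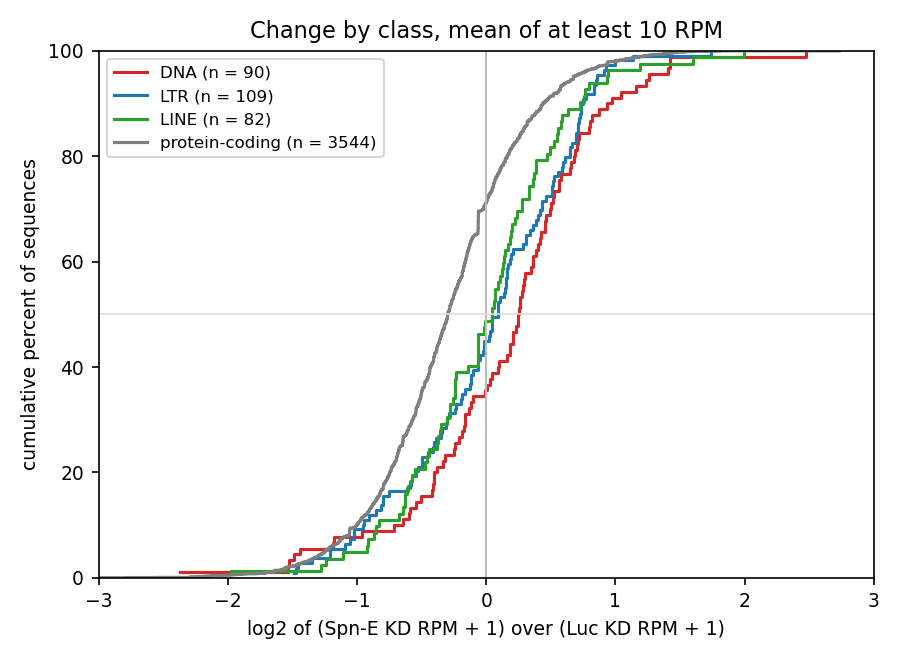
Cumulative percent (y axis) of the log2 fold change, Spn-E KD over Luc KD, with 1 RPM added to each (x axis), for sequences averaging 10 RPM or more, by class. The curve of the 90 DNA transposons crosses 50% at 0.25, to the right of 109 LTR elements (0.088), 82 LINEs (0.045) and 3544 protein-coding sequences (−0.30).

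Longer members had more reads. Across the 122 members Spearman's rho between length and RPM was 0.58 with Luc KD and 0.56 with Spn-E KD, while rho between length and RPKM was 0.16 and 0.23. Among the 90 tested members rho was 0.35 and 0.32 for RPM and −0.21 and −0.13 for RPKM, and the filter on RPM keeps a short member only at a high RPKM. Members share libraries and reads, so these values are descriptions. In Luc KD the corresponding rho between length and RPKM over all sequences of a class was 0.14 for 146 LTR elements and 0.41 for 259 LINEs.

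By length class, the 22 members under 500 nt had a median of 12.3 RPKM with Luc KD and 6.98 RPKM with Spn-E KD, and only 4 of them were tested. The 26 members of 500 to under 1000 nt had medians of 30.5 and 26.7 RPKM, the 46 of 1000 to under 2000 nt 17.3 and 19.4 RPKM, and the 28 of 2000 nt or more 30.6 and 46.0 RPKM. The median log2 fold change of tested members was 0.25 in the longest class, 0.29 for 1000 to under 2000 nt and 0.21 for 500 to under 1000 nt. Summed reads of the longest class went from 5127 to 7517, a log2 ratio of 0.49 (0.44 to 0.54), against 0.38 (0.26 to 0.51) for 500 to under 1000 nt and 0.38 (0.30 to 0.46) for 1000 to under 2000 nt. Without the top member of each class these were 0.35, 0.26 and 0.37. Members under 500 nt went from 173 to 147 reads, a log2 ratio of −0.30 (−0.63 to 0.025), within counting error of no difference. Dense binding was not limited to long members, since MITE-Hoshidandy (278 nt) reached 85.3 and 71.3 RPKM and Helitron-N1_BM (432 nt) 86.9 and 80.9 RPKM.

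**Figure D5:**
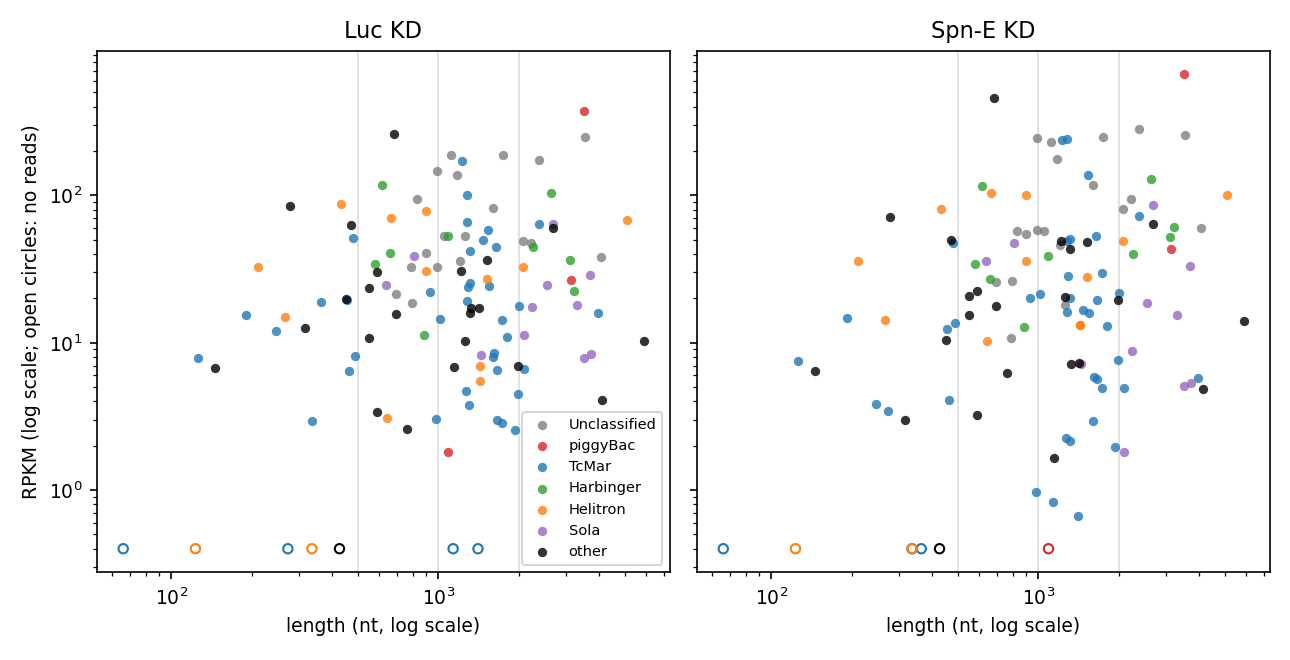
RPKM (y axis, log scale) against length in nt (x axis, log scale) for each of the 122 DNA transposons in Luc KD (left) and Spn-E KD (right), coloured by group, with members without reads as open circles at the bottom and grey lines between the length classes. The 3 highest members by mean RPKM are BmpiggyBac-MER85 (3504 nt), Kasu_polyA_type (684 nt) and BmTE_RM1-413 (3542 nt), of very different length.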

How the data were processed

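BmVasa FAST-iCLIP was performed in 4 BmN4 samples, 2 with Luc KD and 2 with Spn-E KD, grouped by their labels. For the deposited table the authors trimmed reads (Cutadapt 4.0), merged duplicates sharing a random barcode and mapped reads to the SilkBase genome with STAR (2.7.9a). They remapped them to 16880 gene models and 1716 transposon sequences with Bowtie (1.3.1) and processed sense reads with SAMtools (1.15). For both mappers the authors name a random and a multiple counting mode. How often a multiply mapping read was counted is not spelled out. The intervals here take each counted read as a separate one. Near-identical copies can share reads. The deposited read counts are sums over the 2 merged replicates. The deposited RPM values were scaled by the authors to genome-mapped reads, and the deposited RPKM values are RPM per kb.

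Because the replicates are merged, edgeR's quasi-likelihood test could not be fitted. Reads of each sequence averaging 10 RPM or more were instead split between the libraries in an exact binomial test (two-sided; null share from the genome-mapped totals), adjusted by Benjamini-Hochberg at 0.05. It separates pooled libraries beyond counting error, not conditions beyond replicates. Log2 fold changes used a pseudocount of 1 RPM, and folds in the text use none. Intervals are 95% Wilson, Newcombe or Clopper-Pearson intervals, or log intervals from 4 sums for ratios of ratios. Members were named by a rule: the 10 highest by mean RPM, the highest of each superfamily, up to 8 largest rises and falls among called members, the 3 longest and the 3 highest by mean RPKM. Further members were named after their values were seen. The members and lists were chosen with earlier results of these data known. The code was tested on simulated data. Tools were edgeR 4.0.16 (TMM, exact test) under R 4.3.3, and scipy 1.17.1, statsmodels 0.14.6, pandas 2.3.3, numpy 2.4.6 and matplotlib 3.10.9 under Python 3.11.15.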

Additional observations from a re-analysis of the deposited data

How the results depend on the processing

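No paired analysis was possible because the table analysed here holds merged replicates (values of single replicates that accompany the publication were not used), and for the same reason no fit without single replicates was run. The share of DNA transposons stayed higher in Spn-E KD under every base and omission run, by 0.297 points of genome-mapped reads, 1.41 points of gene-library reads without BmTE_RM5-571, 0.511 points without BmpiggyBac-MER85 and 0.548 points without the unclassified members. Centring on protein-coding sequences, whose median log2 fold change was −0.30, put 13 labels above 0 and 1 below. Calls moved with the test and the scaling. Called higher were 32 members after that centring (6.66% of all tested sequences) and 8 with an assumed coefficient of variation of 0.1 in edgeR's exact test (1.57%). At 0.2 and at 0.4 in that test 0 members were called higher (0% of all tested sequences at both). There 13 and 2 members of either direction had an unadjusted p under 0.05, without a computed share of all tested sequences. Called lower were 1 at a minimum of 50 RPM (29.3% of all sequences tested there) and 4 at an assumed 0.1 (2.48%). At an assumed 0.2 and 0.4 they were 0 (0.169% and 0% of all tested sequences). Members at least 2-fold higher numbered 3 at 50 RPM, 17 after centring and 14 under TMM. Members at least 2-fold lower numbered 14 with no minimum and 0 at 50 RPM. Shares of all sequences were not computed for the 2-fold counts under these settings. The DNA median lay above the protein-coding median by 0.36 with no minimum and by 0.70 at 50 RPM. Without the top member of each class, the log2 ratio of ratios was 0.36 against LTR elements (without BmpiggyBac-MER85 and BmRT2) and 0.25 against LINEs (without BmpiggyBac-MER85 and TRAS3). Spearman's rho of length and RPKM was −0.21 among members with a mean of at least 10 RPM. Against the adjusted threshold, of 278 values of named members under alternatives, 212 stayed on the same side of it, 54 lost significance, 48 of them under assumed variation, and 12 gained it. Of the 212, 63 were under assumed variation, where 0 values gained significance, since added variation only weakens a test. The 212 thus include uncalled members that stayed uncalled and do not measure how stable the calls were. Uncalled values among the 212 could change direction. Sola1-2_BM went from a log2 fold change of −0.21 to 0.084 after centring on protein-coding sequences. The called members that passed at an assumed 0.1 included the rises of BmpiggyBac-MER85, Kasu_polyA_type, Mariner-2_BM and Mariner-12_BM. The falls of BmTE_RM6-4471, BmTE_RM6-2104, BmTE_RM6-5534 and BmTE_RM6-105 also passed there.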

Other observations

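The names of the members fell into 2 kinds. Of the 122, 85 carry a serial name (BmTE_ with a number) and 37 an element name such as Mariner-2_BM or Neet. The median log2 fold change of tested members was 0.23 for element names and 0.27 for serial names. The 5 members called lower all carry a serial name beginning BmTE_RM6, a prefix held by 35 of the 90 tested members. Of these 35, 7 were called higher, and their median log2 fold change was 0.25. Elsewhere in the transposon library, 9.49% of 137 tested sequences with this prefix were called higher and 6.57% lower. Of the 30 tested members with an element name, 9 were called higher and 0 lower. In the rest of the transposon library 14.7% of 109 tested sequences with an element name were called lower and 18.3% higher, against 5.49% and 6.32% of 364 with a serial name. The kinds were compared after their values were seen, and what the prefixes stand for is not given in the sources used here.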
